A study of Mus musculus with 8 samples.

Results

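The genes described here are 36 genes of glycolysis, lactate handling and the response to low oxygen, measured in cultured D2A1 mouse mammary carcinoma cells and in the D2A1-m1 and D2A1-m2 sublines. Of the 36, 25 encode glucose and lactate transporters, glycolytic enzymes and their regulators, and 11 belong to the response to low oxygen. Members were found by their annotated symbol on the Illumina MouseWG-6 v2.0 bead array, and a probe was kept when its detection p was at most 0.01 on at least 1 of 8 arrays. By this rule 28 of the 36 members were tested, among 9017 genes in all.

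D2A1 is a BALB/c-derived mammary carcinoma line that metastasises poorly. Each subline was selected independently from it by repeated growth in single BALB/c mice and recovery of tumour cells from the lungs, so each stands for 1 selection, and all RNA came from cells in culture with no treatment named. There were 3 D2A1, 2 D2A1-m1 and 3 D2A1-m2 arrays, 1 per culture, and the methods call the cultures independent. Batch 1 held 2 D2A1 arrays and 1 of each subline, and batch 2 the others.

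Glycolysis converts glucose to pyruvate in a chain of cytosolic steps, and most steps can be carried out by several isoenzymes, encoded by separate genes with different tissue distributions. When oxygen is low, prolyl hydroxylases (the Egln proteins) no longer mark the alpha subunit of the hypoxia-inducible factor (HIF) for destruction, and the factor raises transcription of glucose transporters, many glycolytic genes, Vegfa and its own hydroxylase Egln3. HIF binds a short element with the core ACGTG or GCGTG, and many mammary carcinomas use glycolysis heavily even with oxygen present.

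To show the sequence context, the 300 bases around each RefSeq transcription start (250 before, 50 after, build GRCm38.p6) were searched on both strands for ACGTG and GCGTG. A promoter was found by symbol for 33 of the 36 members, and the others were Bnip3l, Ndrg1 and Angptl4. At least 1 promoter with either core was found for 30 of these 33 members (90.9%), against 46.7% of 27025 genes in the whole table and 69.3% of the 7399 tested genes that had a promoter there. ACGTG alone was found in 22 members (66.7%), against 21.8% of all genes and 30.5% of tested genes. Members were listed in part because they are known HIF targets, so these shares are a description and not a finding. The stretches below are from promoters of members that the results turn on, and of 2 others, Ldha and Pgk1. All are upstream of the start and written in the direction of transcription, with each core in capitals (CACGT and CACGC are the cores on the other strand, and CACGTG holds a core on both).
Slc2a1 promoter, chr4:119108669-119108728 (+ strand): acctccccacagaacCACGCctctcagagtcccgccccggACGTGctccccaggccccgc
Aldoa promoter, chr7:126799361-126799395 (- strand): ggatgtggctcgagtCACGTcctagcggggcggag
Pdk1 promoter, chr2:71873131-71873165 (+ strand): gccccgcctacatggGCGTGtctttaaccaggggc
Egln3 promoter, chr12:54204084-54204118 (- strand): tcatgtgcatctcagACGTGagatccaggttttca
Eno3 promoter, chr11:70657031-70657065 (+ strand): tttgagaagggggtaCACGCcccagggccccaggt
Pgam1 promoter, chr19:41911742-41911802 (+ strand): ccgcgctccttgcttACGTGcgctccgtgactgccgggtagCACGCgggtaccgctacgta
Pgk1 promoter, chrX:106186935-106186988 (+ strand): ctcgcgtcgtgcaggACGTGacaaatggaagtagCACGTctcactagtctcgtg
Ldha promoter, chr7:46845644-46845679 (+ strand): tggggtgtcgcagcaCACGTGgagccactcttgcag
Ldha promoter, chr7:46845741-46845789 (+ strand): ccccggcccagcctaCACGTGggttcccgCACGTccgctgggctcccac
The first 4 belong to members that were high on 1 D2A1 array, and Eno3 and Pgam1 to members that rose in both sublines.

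Each array detected between 13419 and 14942 of its 45281 probes. The cultures carried Krt8 and Krt18 on 8 of 8 arrays, whereas the epithelial genes Cdh1, Epcam and Krt19 were not detected on any. None of 7 endothelial and none of 2 measured erythroid markers was detected. Of 8 measured leukocyte markers only Laptm5 was, on the 3 D2A1-m2 arrays, with Ptprc at background. Of 8 lung-epithelial markers only Ager was detected, on 1 D2A1 array. Of 9 fibroblast markers 4 were detected (Pdgfra, Pdgfrb, Fbln1 and Col1a1), with a summed signal of 191 to 213 in D2A1, 463 to 471 in D2A1-m1 and, in D2A1-m2, 369 to 405. Col1a2, Col3a1, Dcn and Lum were not detected. The summed signal of 11 simple-epithelial markers was 526 to 590 in D2A1 and 898 to 1302 on the subline arrays, and Krt8 rose in both sublines (3.03 and 3.26 on the log2 scale) while Krt18 fell in D2A1-m2 (-1.0). That of 7 basal and myoepithelial markers was 233 to 846 in D2A1, 365 to 496 in D2A1-m1 and, in D2A1-m2, 1301 to 1644, with Acta2 and Mylk on 8 of 8 arrays and Krt5, Krt14 and Krt17 on none. Fibroblast and simple-epithelial sums thus moved with both sublines, and the basal sum and Laptm5 with D2A1-m2. Single genes did not all follow their sum. Acta2 rose in D2A1-m2 only (log2 changes -0.09 and 2.18), but Mylk in both sublines (0.71 and 0.83). Fbln1 rose in both (1.42 and 1.15), but Pdgfra in D2A1-m1 only (0.77 and -0.11). The part of these markers in the results on the members was not tested. In RNA from a whole culture, fewer cells that express a gene and less RNA per cell cannot be told apart.

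In the annotation used, matched by symbol and Entrez ID, no probe carried Hk2, Gpi1 or Eno1, which encode a hexokinase, glucose phosphate isomerase and the ubiquitous enolase and were not analysed here. Another 5 members had probes that were not detected on any array, namely the lactate transporters Slc16a1 and Slc16a3, the fructose-2,6-bisphosphate regulator Pfkfb3, the mitophagy receptor Bnip3 and the carbonic anhydrase Car9. Their raw signals lay between 45.1 and 66.9, and the lowest detection p among their probes was 0.031, for Car9. These 8 members have no value below. The 28 that were tested comprise 19 of 25 glycolysis and lactate genes and 9 of 11 hypoxia-response genes, and 12 of them had more than 1 kept probe.

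Values are log2 intensities after background correction and quantile normalisation. A gene is called changed when limma's moderated test, with line and batch in the model, gave a Benjamini-Hochberg adjusted p below 0.05 over the 9017 genes and a change of at least 1.5-fold. In D2A1-m1, 7 of the 28 members differed from D2A1, of which 5 were higher (Hk1, Aldoc, Pgam1, Eno3 and Angptl4) and 2 lower (Pfkp and Adm). Of all genes tested, 14.6% differed in this comparison (7.72% higher and 6.84% lower). The median log2 change of the members was 0.13, against 0.01 for all genes. Aldoc and Adm were each detected on 1 array only, in the line where they were high, and entered the test through it. With detection required on at least 3 arrays, 25 members were tested and 5 called, 4 higher and 1 lower (background 15.2%).

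In D2A1-m2, 6 of the 28 members differed from D2A1, with Hk1, Pgam1, Eno3 and Angptl4 higher and Pfkp and Adm lower. The background was 16.2% of genes (8.87% higher and 7.34% lower). The median log2 change of the members was 0.15, against -0.00 for all genes. With detection on at least 3 arrays, which drops Adm, 5 of 25 members were called (background 16.8%). Both comparisons use the same 3 D2A1 arrays, so they are not independent of each other. By single probe, limma called 8 of the members' 42 kept probes for D2A1-m1 and 7 for D2A1-m2, against 12.3% and 13.1% of the 16462 kept probes.

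**Figure D1:**
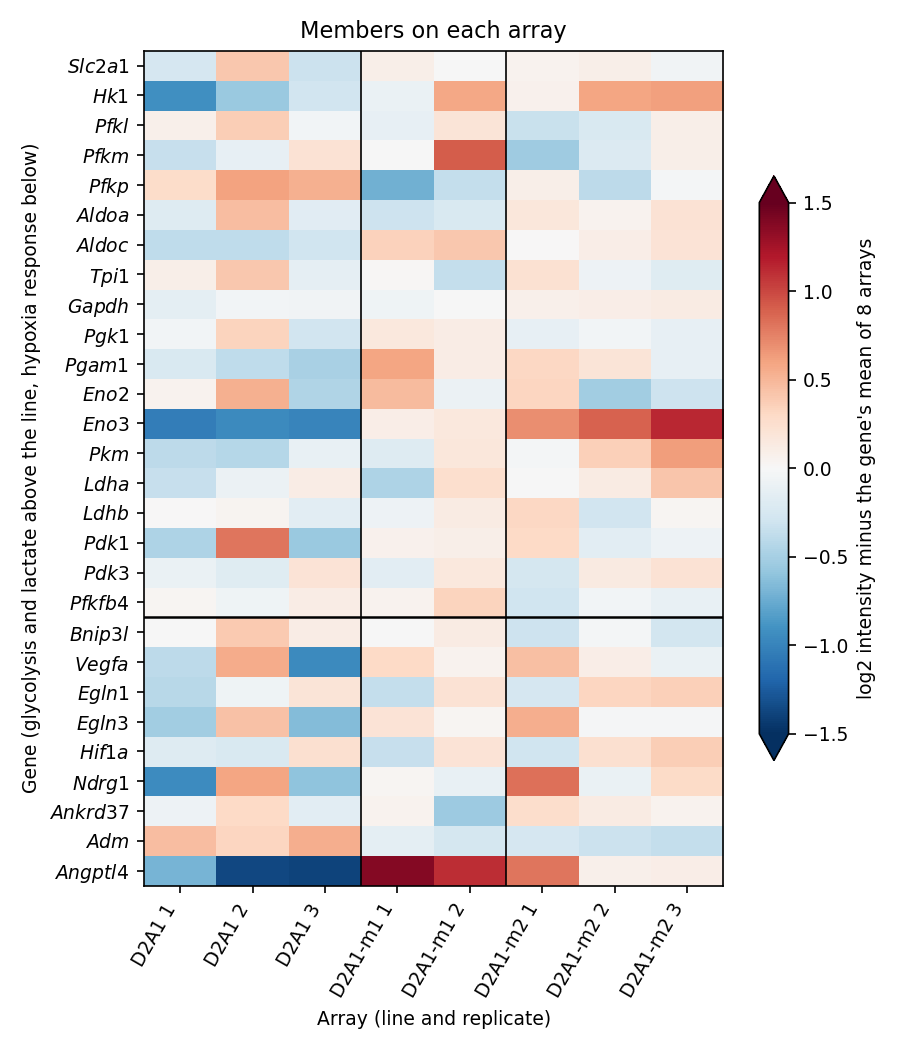
Log2 intensity of the 28 tested members (rows) on the 8 arrays (columns, by line and replicate), each minus the gene's mean of 8 arrays, with the scale ending at 1.5 in either direction. Eno3 and Angptl4 are low on the 3 D2A1 arrays and higher on all 5 subline arrays, and D2A1 replicate 2 differs from the other D2A1 arrays in Pdk1, Vegfa, Egln3 and Ndrg1.

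**Figure D2:**
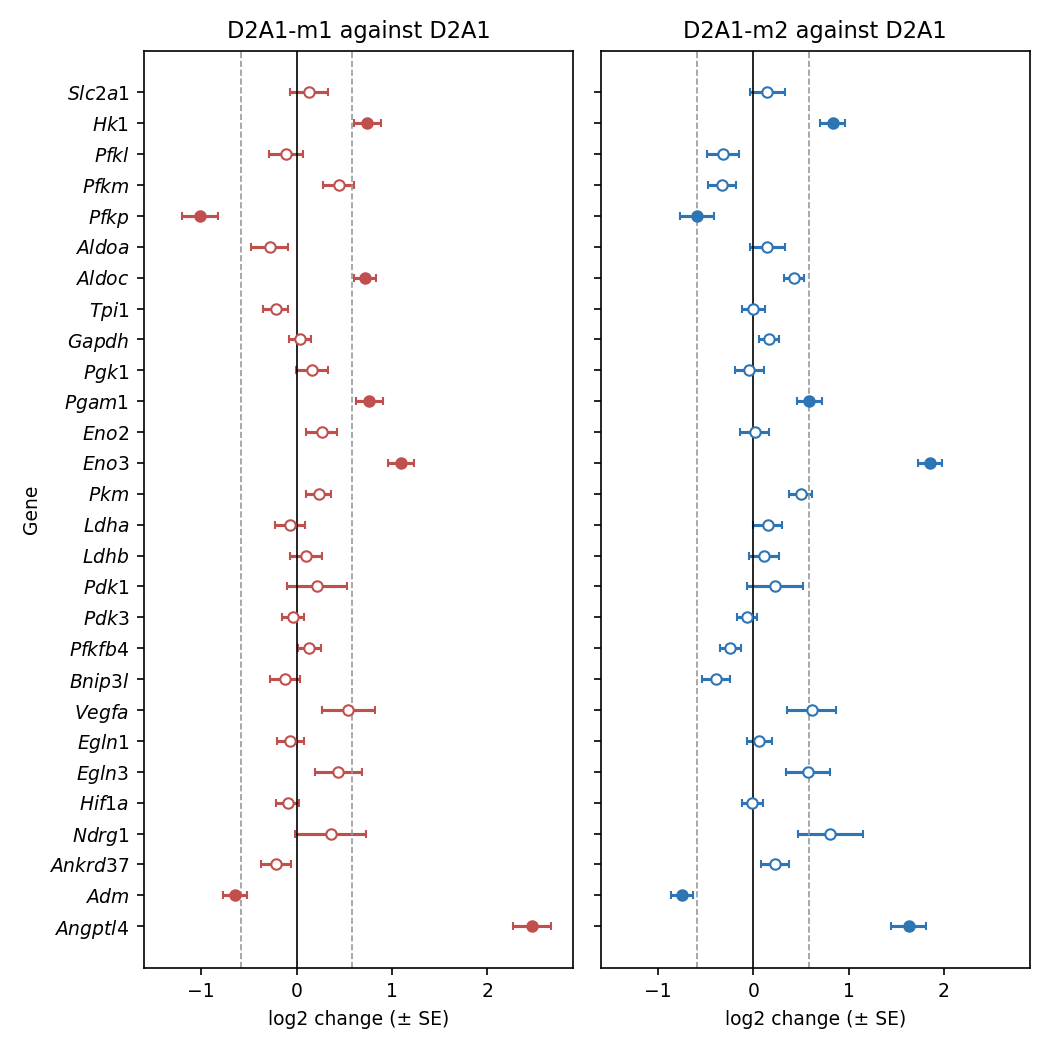
Log2 change of each tested member from limma (horizontal axis, bars are 1 SE) in D2A1-m1 (left) and D2A1-m2 (right) against D2A1, with dashed lines at 1.5-fold and filled points for the 7 and 6 called members. Eno3 and Angptl4 lie farthest to the right in both panels.

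Glucose enters these cells through transporters such as GLUT1, the product of Slc2a1, and hexokinase traps it as glucose 6-phosphate. Slc2a1 read 9.97, 10.64 and 9.90 on the D2A1 arrays, 10.32 and 10.22 in D2A1-m1, then 10.28, 10.32 and 10.17 in D2A1-m2. One D2A1 array lay above and the others below all subline arrays, and the log2 changes of 0.13 (SE 0.20) and 0.15 (SE 0.18) did not pass the test.

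Hk1, the hexokinase found in most tissues, rose in both sublines. Its probe read 4.83, 5.18 and 5.45 in D2A1, where it was detected on 1 of 3 arrays, 5.65 and 6.33 in D2A1-m1, then 5.81, 6.34 and 6.35 in D2A1-m2. All subline arrays lay above all D2A1 arrays, while the sublines overlapped each other. The log2 change was 0.74 in D2A1-m1 (1.67-fold, SE 0.14, limma adjusted p = 0.00637) and 0.83 in D2A1-m2 (1.78-fold, SE 0.13, limma adjusted p = 0.00204). A second Hk1 probe, detected on 3 arrays, did not pass in either subline (0.04 and 0.19). The D2A1-m1 call was lost without either D2A1-m1 replicate (limma adjusted p = 0.0563 without replicate 1 and 0.0788 without replicate 2). As 2 of the D2A1 arrays did not detect the probe, the size of the change rests on the background step. The log2 changes were 0.43 and 0.49 with an offset of 50, and 0.18 and 0.21 in the authors' processed values, and both calls were lost under either.

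Phosphofructokinase commits sugar to glycolysis and has a liver (Pfkl), a muscle (Pfkm) and a platelet (Pfkp) form. Pfkp fell in both sublines, from 8.72, 9.05 and 8.98 in D2A1 to 7.73 and 8.10 in D2A1-m1, then 8.54, 8.05 and 8.42 in D2A1-m2. Both sublines lay below every D2A1 array. Pfkp decreased by 1.01 on the log2 scale in D2A1-m1 (SE 0.19, limma adjusted p = 0.00608, 2.01-fold lower) and by 0.59 in D2A1-m2 (SE 0.18, limma adjusted p = 0.0333). A second Pfkp probe fell in both too, with log2 changes of -0.83 and -0.67.

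The fall of Pfkp in D2A1-m2 was near the threshold. That call was lost without D2A1 replicate 2 (log2 change -0.52, limma adjusted p = 0.0517), D2A1 replicate 3 (-0.54, 0.169), D2A1-m2 replicate 2 (-0.46, 0.0856) or D2A1-m2 replicate 3 (-0.62, 0.0708), and without either D2A1-m1 replicate (-0.55, 0.0499, below 1.5-fold). The D2A1-m1 call was lost without D2A1-m1 replicate 1 (-0.75, limma adjusted p = 0.130).

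Pfkm was called between the 2 sublines. It read 7.11, 7.33 and 7.67 in D2A1, 7.45 and 8.37 in D2A1-m1, then 6.92, 7.25 and 7.54 in D2A1-m2. The lines overlapped, with replicates of batch 2 high within each. Neither subline passed against D2A1 (0.44 with limma adjusted p = 0.0780, and -0.33 with 0.127), but D2A1-m1 exceeded D2A1-m2 by 0.77 (SE 0.16, limma adjusted p = 0.0306), with 0.53 within batch 1 and 0.97 within batch 2. That call was lost with the batch as a random block (limma adjusted p = 0.0625), with no batch term (0.398) and with replicate number as the block instead of batch (0.0802). Of the other Pfkm probes, 1 gave 0.46 for this difference and was not called. The brightest gave 0.82 (limma adjusted p = 0.00985 over the kept probes), with 0.84 within batch 1 and 0.83 within batch 2. On it D2A1-m1 (10.02 and 10.53) did not overlap D2A1-m2 (9.18, 9.73 and 9.68). Pfkl was not called in any comparison (-0.11 and -0.32 against D2A1), and a much brighter second Pfkl probe gave -0.28 and -0.19.

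**Figure D3:**
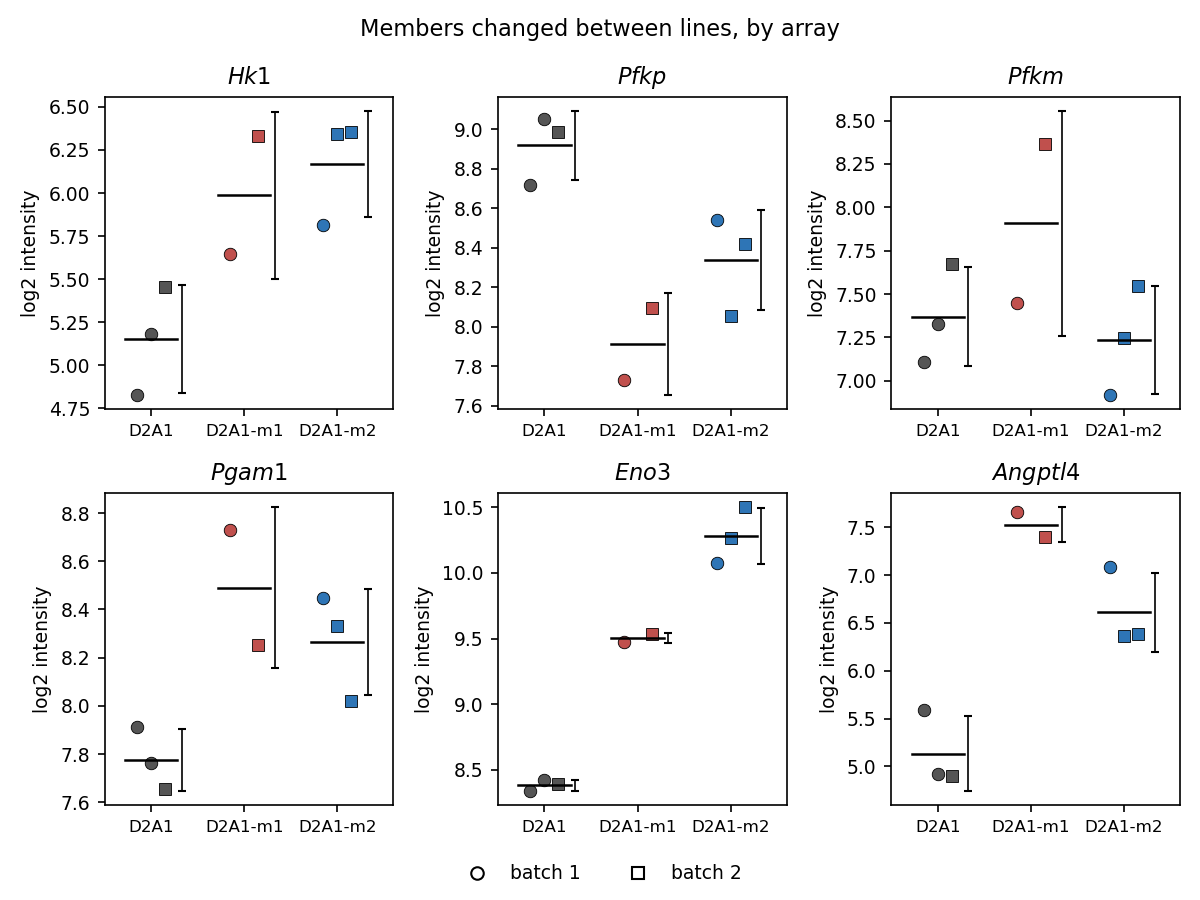
Log2 intensity by array of 6 members called in at least 1 comparison, with circles for batch 1 and squares for batch 2, a horizontal line at the mean and a bar of 1 SD. Hk1, Pgam1, Eno3 and Angptl4 lie higher and Pfkp lower in both sublines than on any D2A1 array, and Pfkm is highest on D2A1-m1 replicate 2.

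Aldolase splits the 6-carbon sugar, and Aldoa is its widespread form, Aldoc the form best known from brain. Aldoa read 11.23, 11.88 and 11.25 in D2A1, 11.11 and 11.20 in D2A1-m1, then 11.59, 11.47 and 11.64 in D2A1-m2, and no comparison passed. Aldoc read 4.36, 4.36 and 4.44 in D2A1, 5.09 and 5.15 in D2A1-m1, then 4.75, 4.85 and 4.95 in D2A1-m2. It was detected on only 1 array, D2A1-m1 replicate 2, at 5.15 against 5.13 for the lowest detected probe there. The Aldoc values did not overlap between lines, and limma called Aldoc higher in D2A1-m1 (limma adjusted p = 0.00279), without a size because the D2A1 arrays give only a bound. No difference is given for D2A1-m2, where no array detected it either. With no background correction, an offset of 50 or the authors' processed values, Aldoc was no longer called in D2A1-m1. The same held with median centring in place of quantile normalisation. The D2A1-m1 call was lost without D2A1-m1 replicate 1 (limma adjusted p = 0.0673).

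No gene of the middle of the pathway was called. Tpi1 (triose phosphate isomerase), Gapdh and Pgk1 (phosphoglycerate kinase) had log2 changes between -0.22 and 0.16 in the 2 sublines, none of which passed. Gapdh read 13.25 to 13.36 on the D2A1 arrays and 13.33 to 13.52 on the subline arrays. For Pgk1, whose promoter holds 2 ACGTG cores (above), a brighter second probe gave -0.06 and 0.15.

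Phosphoglycerate mutase, encoded by Pgam1, moves the phosphate ahead of the enolase step. Pgam1 read 7.91, 7.76 and 7.66 in D2A1, 8.73 and 8.25 in D2A1-m1, then 8.45, 8.33 and 8.02 in D2A1-m2. All subline arrays exceeded all D2A1 arrays. The log2 change was 0.76 in D2A1-m1 (SE 0.14, limma adjusted p = 0.00586, 1.70-fold) and 0.59 in D2A1-m2 (SE 0.13, limma adjusted p = 0.0106). A brighter second Pgam1 probe rose less, by 0.25 and 0.55, and was called in neither.

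The Pgam1 call in D2A1-m1 was lost without D2A1-m1 replicate 1 (0.63, limma adjusted p = 0.124). In D2A1-m2 it was lost without D2A1 replicate 2 (0.54), either D2A1-m1 replicate (0.56), D2A1-m2 replicate 1 (0.60, limma adjusted p = 0.0628) or D2A1-m2 replicate 2 (0.51), all but the D2A1-m2 replicate 1 value for falling below 1.5-fold.

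Enolase makes phosphoenolpyruvate, with Eno3 as the muscle form and Eno2 as the neuronal form. Eno3 gave the strongest change of any glycolytic member that was tested. It read 8.34, 8.42 and 8.39 in D2A1, 9.48 and 9.53 in D2A1-m1, then 10.08, 10.26 and 10.50 in D2A1-m2. The 3 lines were fully separate, with D2A1-m2 highest. The log2 change was 1.1 in D2A1-m1 (SE 0.14, limma adjusted p = 0.000703, 2.14-fold) and 1.85 in D2A1-m2 (SE 0.13, limma adjusted p = 1.84e-05, 3.61-fold). Within batch 1 and batch 2 the difference from D2A1 was 1.1 and 1.14 for D2A1-m1, then 1.69 and 1.99 for D2A1-m2. Both calls held when any single array was left out. Eno3 has 1 probe on the array, so no second probe could be set beside it.

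Eno2 was not called. It read 7.28, 7.77 and 6.78 in D2A1, 7.70 and 7.14 in D2A1-m1, then 7.55, 6.71 and 6.92 in D2A1-m2, with all lines overlapping and batch 1 arrays high. Its log2 changes of 0.26 and 0.02 did not pass.

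The last steps showed no called change. Pkm, pyruvate kinase, read 12.64, 12.61 and 12.92 in D2A1, 12.84 and 13.21 in D2A1-m1, then 13.00, 13.39 and 13.66 in D2A1-m2. It was higher on every D2A1-m2 array than on any D2A1 array, with a log2 change of 0.50 (SE 0.12, limma adjusted p = 0.0157) that stayed below 1.5-fold. Ldha, which turns pyruvate into lactate, read 13.14, 13.39 and 13.59 in D2A1 and 13.02 to 13.89 in the sublines (log2 changes -0.07 and 0.15), and its first promoter holds 5 ACGTG matches. Ldhb, detected on 2 arrays, gave 0.10 and 0.12.

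Among the regulators, Pdk1 and Pdk3, kinases that shut pyruvate dehydrogenase, and Pfkfb4, which sets fructose 2,6-bisphosphate, had log2 changes between -0.24 and 0.22, and none passed. Pdk3 read 9.35 to 9.73 in D2A1 and 9.27 to 9.75 in the sublines. Pfkfb4 was higher in D2A1-m1 than in D2A1-m2 on every array (0.37, SE 0.12), but its limma adjusted p was 0.110.

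Isoenzymes were also set side by side as the log2 ratio of one to the other on the same array, whose level has no meaning across probes but whose difference between lines does. Of 12 pairs chosen, 6 had a kept probe for both genes, which gave 18 differences between line means, with no batch term. Exact 2-sided permutation tests of 2 or 3 arrays against 3 cannot go below p = 0.1, and the lowest p adjusted over the 18 was 0.36, so none passed. The Pfkl probe used read 5.20 to 5.90 and was detected on 7 arrays, near background (lowest detected values 5.08 to 5.39). The ratio of Pfkp to Pfkl was 3.11, 3.15 and 3.50 in D2A1, 2.32 and 2.37 in D2A1-m1, then 3.34, 2.75 and 2.80 in D2A1-m2. It was lower in D2A1-m1 than on any array of both other lines, by 0.91 against D2A1 (0.72 with the brightest probe of each gene, 0.63 with no background correction and 0.41 in the authors' processed values) and by 0.62 against D2A1-m2 (0.35, 0.30 and 0.19 under the same settings). The ratio of Pfkm to Pfkl was 2.04 and 2.64 in D2A1-m1, above the 1.72, 1.94 and 1.93 of D2A1-m2, a difference of 0.48 (0.82 with the brightest probes), while D2A1, at 1.49, 1.43 and 2.19, overlapped both. The ratio of Aldoc to Aldoa in D2A1-m1 did not overlap with the other lines, but Aldoc has only a bound in those.

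The ratio of Eno3 to Eno2, a pair added after the values were seen and so given without a test, was 1.06, 0.65 and 1.61 in D2A1, 1.78 and 2.39 in D2A1-m1, then 2.52, 3.55 and 3.59 in D2A1-m2. The subline means lay 0.97 and 2.11 above the D2A1 mean, with no batch term. Within batch 1 and batch 2 the difference was smaller, at 0.92 and 0.78 for D2A1-m1, then 1.67 and 1.95 for D2A1-m2. The ratios of Ldhb to Ldha, Pdk3 to Pdk1 and Egln3 to Egln1 overlapped between all lines.

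**Figure D4:**
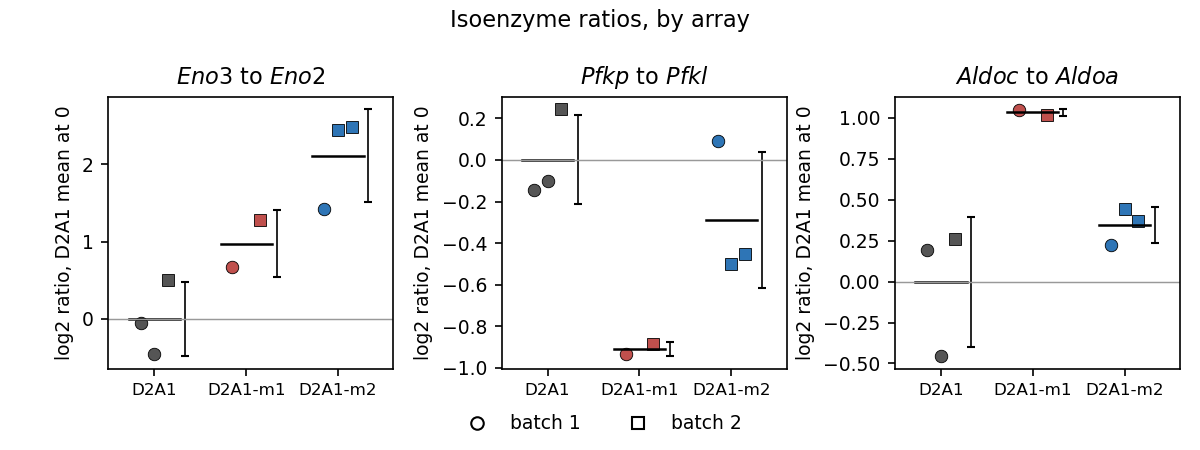
Log2 ratio of isoenzymes on each array, shifted so that the D2A1 mean is 0, with circles for batch 1 and squares for batch 2, a line at the mean and a bar of 1 SD. The mean ratio of Eno3 to Eno2 lies 0.97 above D2A1 for D2A1-m1 and 2.11 above it for D2A1-m2. That of Pfkp to Pfkl lies 0.91 below it in D2A1-m1. These differences have no batch term. Aldoc was detected on 1 array only, and the Pfkl probe used lay near background.

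Of the oxygen-sensing machinery, neither Hif1a, the regulated subunit of HIF, nor Egln1, its main hydroxylase, was called. Hif1a read 7.79, 7.76 and 8.22 in D2A1, 7.64 and 8.19 in D2A1-m1, then 7.68, 8.22 and 8.35 in D2A1-m2, following the batch. Its log2 changes were -0.09 and -0.01. Egln1, detected on 4 arrays, gave -0.06 and 0.07. Hif1a is controlled largely through protein stability, which these arrays do not measure.

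Angptl4, a secreted inhibitor of lipoprotein lipase that is induced by low oxygen and by fatty acids, gave the largest change among tested members in D2A1-m1. It read 5.59, 4.92 and 4.90 in D2A1, where it was detected on 1 of 3 arrays, 7.66 and 7.4 in D2A1-m1, then 7.09, 6.36 and 6.39 in D2A1-m2. The lines did not overlap, with D2A1-m1 highest. The log2 change was 2.47 in D2A1-m1 (SE 0.20, limma adjusted p = 4.71e-05, 5.54-fold) and 1.63 in D2A1-m2 (SE 0.18, limma adjusted p = 0.000353, 3.10-fold). Within batches 1 and 2 the difference from D2A1 was 2.41 and 2.5 for D2A1-m1, then 1.83 and 1.48 for D2A1-m2, and both calls held without any single array. As 2 of the D2A1 arrays did not detect it, the size rests on the background step, and was 1.71 and 1.04 with an offset of 50 and 0.89 and 0.49 in the authors' processed values, the last below 1.5-fold. A second Angptl4 probe, detected on 1 array, did not follow (-0.50 and -0.14, neither passing).

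Adm, the vasodilator peptide adrenomedullin, was near background throughout. It read 5.26, 5.12 and 5.34 in D2A1, where 1 array detected it, and 4.44 to 4.65 on the 5 subline arrays, where none did. The groups did not overlap, and limma called Adm lower in D2A1-m1 (limma adjusted p = 0.0075) and in D2A1-m2 (limma adjusted p = 0.00204). No size is given, since the subline values are bounds and 2 of 3 D2A1 arrays did not detect it. Both calls were lost with no background correction, with an offset of 50 and in the authors' processed values. The D2A1-m1 call was lost without D2A1 replicate 3 (limma adjusted p = 0.0504), D2A1-m1 replicate 1 (0.0687) or D2A1-m1 replicate 2 (0.0886).

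The mitophagy receptor Bnip3l and Ankrd37, an ankyrin-repeat gene induced by HIF, were not called. Bnip3l read 10.28 to 10.68 in D2A1 and 9.97 to 10.41 in the sublines, with log2 changes of -0.12 and -0.39. Ankrd37 gave -0.22 and 0.23.

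Several HIF targets differed among the 3 D2A1 arrays. Replicate 2 of D2A1 was compared with replicate 1, of the same line and batch, as a description of 2 arrays with no test. It was at least 1.5-fold higher for 6 of 28 members, against 5.27% of all genes, namely Slc2a1 (1.59-fold), Aldoa (1.57-fold), Pdk1 (2.39-fold), Vegfa (1.94-fold), Egln3 (1.94-fold) and Ndrg1 (2.91-fold). It was at least 1.5-fold lower for 1 member, Angptl4, against 4.94% of genes. The median difference was 0.30 on the log2 scale over the members and 0.00 over all genes. Replicates 3 and 2 of D2A1-m2, also of 1 batch, were at least 1.5-fold apart for 0 of 28 members, against 1.59% of genes.

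Vegfa, the endothelial growth factor gene, read 9.26, 10.21 and 8.69 in D2A1, 9.95 and 9.71 in D2A1-m1, then 10.10, 9.75 and 9.55 in D2A1-m2. Replicate 2 of D2A1 lay above all other arrays, and both other D2A1 arrays below all others. A second Vegfa probe had the same order of D2A1 arrays (6.93, 7.95 and 6.65). Pdk1 read 6.39, 7.65 and 6.30 in D2A1 against 6.69 to 7.14 in the sublines, again with 1 D2A1 array above and the others below.

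Egln3, the hydroxylase that HIF itself induces, read 8.0, 8.96 and 7.88 in D2A1, 8.73 and 8.55 in D2A1-m1, then 9.07, 8.51 and 8.51 in D2A1-m2. Ndrg1, a stress-responsive gene induced by low oxygen, read 5.6, 7.14 and 5.95 in D2A1, 6.58 and 6.44 in D2A1-m1, then 7.37, 6.45 and 6.84 in D2A1-m2. In both genes D2A1 replicate 2 fell within or above the range of the sublines, and the other D2A1 arrays fell below it. A second Ndrg1 probe had D2A1 values of 5.72, 6.77 and 6.23.

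**Figure D5:**
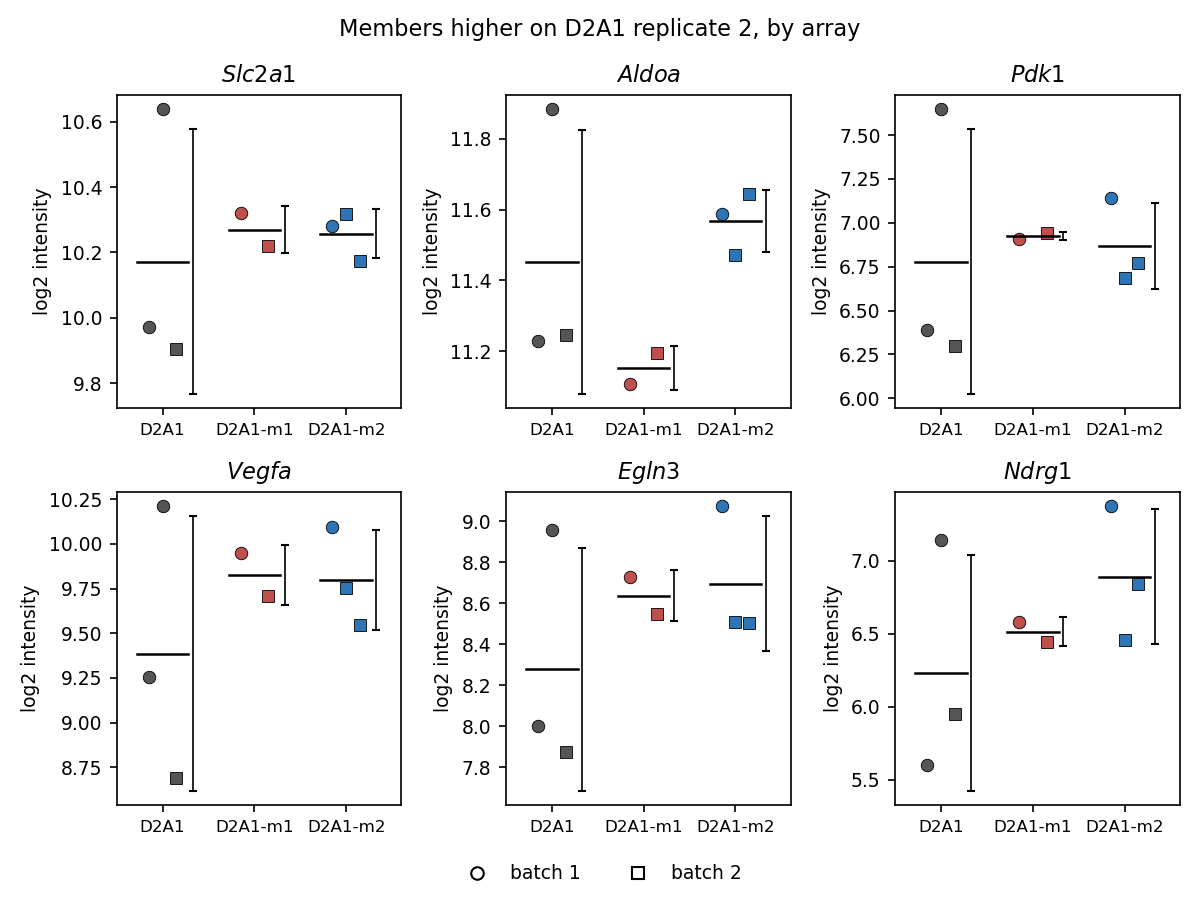
Log2 intensity by array of the 6 members that were at least 1.5-fold higher on D2A1 replicate 2 than on replicate 1, with circles for batch 1 and squares for batch 2, a line at the mean and a bar of 1 SD. By this choice replicate 2 lies above replicate 1 in every panel, and it also lies above replicate 3. In all but Aldoa the other D2A1 arrays lie below every subline array.

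With all 8 arrays 0 of these 6 genes was called between lines by limma. Their log2 changes were 0.54 and 0.61 for Vegfa (limma adjusted p = 0.186 and 0.102), 0.44 and 0.58 for Egln3 (0.228 and 0.0881), and 0.36 and 0.81 for Ndrg1 (0.521 and 0.108). Without D2A1 replicate 2, limma called 9 members in D2A1-m1 (background 16.4%) and 7 in D2A1-m2 (background 18.1%). Vegfa was then higher by 0.85 and 0.89 (limma adjusted p = 0.00261 and 0.00115) and Egln3 by 0.70 and 0.81 (0.00859 and 0.00239), and Ndrg1 was called in D2A1-m2 (1.15, 0.00531) and not in D2A1-m1 (0.74, 0.0542). Pdk1 reached 0.58 and 0.56 (limma adjusted p = 0.0174 and 0.0121), just below 1.5-fold. Batch 2 alone lacks that array and holds 1 D2A1 and 1 D2A1-m1 array, so only D2A1-m2 gave a spread there. Within it the log2 differences from D2A1 were 1.02 and 0.96 for Vegfa and 0.67 and 0.63 for Egln3. For Ndrg1 they were 0.49 and 0.70. D2A1 replicate 2 was left out after its values were seen, and these genes were picked as high on it. Their p-values without it are thus a description and not a test, and the state of that culture was not tested.

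Where the sublines differed from each other, limma called 3 of the 28 members between D2A1-m1 and D2A1-m2, against 4.27% of genes (2.00% higher and 2.27% lower in D2A1-m1). The median over members was -0.05, against 0.01 over all genes. Angptl4 was higher in D2A1-m1 by 0.84 (SE 0.20, limma adjusted p = 0.0454), Pfkm by 0.77 as above, and Eno3 was lower by 0.75 (SE 0.14, limma adjusted p = 0.0195). For Angptl4 and Eno3 the sublines did not overlap. The second Angptl4 probe, detected on 1 D2A1 array only, gave -0.36 for this difference and was not called. In the authors' processed values the Angptl4 difference was 0.41, below 1.5-fold, and its call was lost. By single probe, 4 of 42 were called, against 3.34% of kept probes, and with detection on at least 3 arrays 3 of 25 members, against 4.55%.

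These calls between sublines rested on few arrays. Leaving out either D2A1-m1 array or D2A1-m2 replicate 2 or 3 ended all 3 calls, and leaving out D2A1-m2 replicate 1 ended those of Angptl4 and Pfkm, as did, for Angptl4, D2A1 replicate 3. Over these settings the log2 difference ran from 0.69 to 1.00 for Angptl4 and from 0.53 to 0.98 for Pfkm. For Eno3 it ran from -0.86 to -0.66. Of 25 alternatives, 14 lost the Angptl4 call, 12 that of Pfkm and 9 that of Eno3.

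Neighbouring pathways were described from lists of other genes. In the pentose phosphate pathway, which branches off at glucose 6-phosphate to make NADPH and ribose, 8 of 10 listed genes were tested. In D2A1-m1 0 were higher and 3 lower, against 7.72% and 6.84% of all genes, and in D2A1-m2 1 was higher and 1 lower, against 8.87% and 7.34%. Rpia, ribose 5-phosphate isomerase, read 9.63, 9.84 and 9.98 in D2A1 and 8.87 to 9.09 on the subline arrays, with log2 changes of -0.87 and -0.92 (limma adjusted p = 0.00166 and 0.000727). Transketolase (Tkt) fell in D2A1-m1 by 0.75 (limma adjusted p = 0.00232), and Rbks, ribokinase, by 0.72 (0.0259). In D2A1-m2 both were lower by less than 1.5-fold (-0.44 and -0.55). H6pd, the hexose 6-phosphate dehydrogenase of the endoplasmic reticulum, rose in D2A1-m2 by 0.60 (0.00975). The median over the list was -0.34 in D2A1-m1 and -0.28 in D2A1-m2.

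Of 8 tested genes for entry of pyruvate into mitochondria, only Pdp1, the phosphatase that reactivates pyruvate dehydrogenase, was called. It read 5.53 to 5.91 in D2A1 and 6.22 to 6.72 in the sublines, a log2 change of 0.60 for D2A1-m1 and 0.77 for D2A1-m2 (limma adjusted p = 0.0204 and 0.00386). Of all genes tested, 14.6% were called in D2A1-m1, 16.2% in D2A1-m2 and 4.27% between the sublines. Of 6 other glycolytic isoenzymes and 7 genes of glycogen and gluconeogenesis, limma called 0 in any of these comparisons. The unadjusted p was under 0.05 for 1 isoenzyme in each and for 1 or 2 of the latter genes. Of all 9017 genes, 3297 in D2A1-m1 and 3669 in D2A1-m2 reached that p against D2A1, and 1868 between the sublines.

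Among 14 tested regulators of the HIF pathway, 1 was called in each comparison, against 14.6%, 16.2% and 4.27% of all genes. The coactivator Ep300 was higher in D2A1-m1 (0.67, limma adjusted p = 0.016), Siah1a, a ubiquitin ligase that acts on prolyl hydroxylases, was lower in D2A1-m2 (-0.61, 0.00645), and the elongin subunit Eloc was lower in D2A1-m1 than in D2A1-m2 (-0.61, 0.0448). Of 23 other genes that low oxygen induces, limma called 0 in D2A1-m1 and in D2A1-m2 3, all higher, against 8.87% of all genes. In D2A1-m1 5 of the 23 had an unadjusted limma p under 0.05, against 3297 of all 9017 genes. Between the sublines limma called 0 of the 23, with 5 at an unadjusted p under 0.05, against 1868 of all 9017 genes. Edn1 (endothelin 1) rose by 1.04 (limma adjusted p = 0.0154) and Plod2 (a lysyl hydroxylase of collagen) by 0.83 (0.00861). The other was the growth factor gene Pgf, which is given no size because no D2A1 array and 1 of 3 D2A1-m2 arrays detected it. Edn1 read 6.47, 7.08 and 5.54 in D2A1, 6.34 and 6.18 in D2A1-m1, then 7.31, 7.19 and 7.17 in D2A1-m2. The median over these 23 genes was 0.07 for D2A1-m1 and 0.15 for D2A1-m2.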

How the data were processed

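The authors deposited mean bead intensity values per probe and array, exported without background subtraction or normalisation, with a detection p-value from negative control beads. They also deposited processed values close to a log2 scale, for which they kept probes detected on at least 1 array, stabilised the variance and normalised by robust splines in lumi, then removed the batch with ComBat. These served as an alternative.

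In R 4.3.3, limma 3.58.1 applied neqc (normexp from detection p-values, offset 16, quantile, log2). Of 45281 probes, the platform annotation gave 1 gene for 34885, several for 18 and none for 10378. Where a gene had several kept probes, that of largest interquartile range was used. All 8 arrays were fitted by line and batch (4 residual degrees of freedom). The fit was tested on simulated arrays. The number of arrays limits the precision. The p-values set a difference between lines against the spread between cultures, pooled over lines and moderated across genes. As each subline stands for 1 selection, they do not cover the spread between selections.

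All 36 members are accounted for. Those changed in at least 1 comparison are given in full and others by range, and up to 4 called genes are named per neighbouring list. Members and lists were chosen with earlier results of these data known. Deviations of the arrays followed the batch (same-number correlations -0.30 to 0.71). As replicate number and batch largely coincide, pairing by number could not be told apart from batch.

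Alternatives changed the batch or replicate terms, background correction, normalisation, detection filter, probe choice, prior, significance limit and set of arrays.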

Additional observations from a re-analysis of the deposited data

Results flagged for a closer look

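Of the 28 members, 3 differed between D2A1-m1 and D2A1-m2 by limma's test of the difference itself, and were looked at again for that reason. The log2 difference, D2A1-m1 minus D2A1-m2, was 0.77 for Pfkm, -0.75 for Eno3 and 0.84 for Angptl4. Pfkm lay at 7.45 and 8.37 in D2A1-m1 and at 6.92, 7.25 and 7.54 in D2A1-m2, and the sublines overlapped. On the brightest Pfkm probe, not the one used, they did not overlap. The second Angptl4 probe, near background, went the other way (-0.36) and was not called. With 2 or 3 arrays in a line, the arrays were not tested for outliers.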

How the results depend on the processing

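Of the 16 calls on members, 0 reversed direction under any alternative, and 268 of 397 repeats kept the call. The Eno3 call in D2A1-m2 was kept in all 25 alternatives and the Angptl4 call in D2A1-m1 in 24 of 25, while Pgam1 in D2A1-m2 kept it in 6 of 25 and Pfkp in D2A1-m2 in 8 of 25. Of the 68 member comparisons not called, 20 of 1694 repeats gave a call, most of them for Vegfa, Egln3 and Ndrg1.

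Numbers of genes called are given for D2A1-m1 and D2A1-m2, each against D2A1, and then between the sublines, where they moved by over 1.5 times. For all genes (1313, 1462 and 385) batch 1 alone gave 168, 122 and 0, the authors' processed values 383, 391 and 97, and the methods' t-test on those values, run here with pooled variance and not in the study's software, 31, 86 and 15 at their threshold (unadjusted p under 0.001 and 1.5-fold) and 0, 243 and 0 after Benjamini-Hochberg adjustment. The study's limit gave 861 for D2A1-m1. No background correction gave 918 for D2A1-m2 and 252 between sublines, an offset of 50 gave 917 and 252, and between sublines no batch term gave 70 and no detection filter 214.

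For members (7, 6 and 3) batch 1 alone gave 1, 1 and 0, the methods' t-test 1, 1 and 0 at their threshold and 0, 1 and 0 after adjustment, and the authors' processed values 3 and 1 for the sublines against D2A1. No background correction and an offset of 50 each gave 4 and 2 there. Between sublines no batch term gave 0 and no detection filter 1.

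The replicate number as a block in place of the batch gave 97 genes and 0 members between the sublines, and for members 8 for D2A1-m1 and 5 for D2A1-m2. Replicate block and batch together gave 10 and 7. Leaving out 1 array gave 498 to 1475, 1134 to 1633 and 32 to 545 genes, and 2 to 9, 4 to 7 and 0 to 3 members. The lowest counts in D2A1-m1 came without its replicate 1, which leaves 1 D2A1-m1 array assumed to vary like the others. Isoenzyme ratios moved by over 1 SD in 6 cases, among them Pfkp to Pfkl in D2A1-m1 (-0.41 in the authors' processed values).

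The cause of these shifts was not tested, except that fewer arrays enter a single batch. Aldoc, Adm, Ldhb, Egln1 and the Pfkl probe used lie near background, where the offset sets the size of a change. The offset does so too for Hk1 and Angptl4, detected on 1 of 3 D2A1 arrays.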
